A study of Caenorhabditis elegans with 19 samples.

Results

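The core histone genes of Caenorhabditis elegans were followed in RNA from dissected gonads. They were taken as all protein-coding genes with a symbol that begins with his-, without his-24, the gene of a linker histone. There were 71 such genes among the 19985 protein-coding genes counted. By annotated coding length 17 of them were placed with histone H2A, 16 with H2B, 15 with H3 and 16 with H4. A further 6, his-69 to his-74, formed a group around the replacement histone H3.3, and his-39, an open reading frame shorter than the rest, was left without a class.

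Core histones form the octamer on which DNA is wound: a tetramer of H3 and H4 is flanked by dimers of H2A and H2B. Most core histone genes of C. elegans are replication-dependent: they lie in many near-identical copies in clusters and are used when DNA is copied, and their mRNAs commonly end in a stem-loop in place of a poly(A) tail. H3.3 is put into chromatin outside of DNA replication as well, and in the worm his-71 and his-72 encode it, with his-74 encoding a closely related protein. In the gonad, mitotic germ cells at the distal end copy their DNA, and growing oocytes store histone mRNA and protein for the embryo.

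The study used 3 strains in which 1 protein each carried an auxin-inducible degron, a tag that lets the plant hormone auxin trigger destruction of the protein. The tagged proteins were RPOA-2 (strain ESC332), part of RNA polymerase I, the enzyme that makes ribosomal RNA, and GRWD-1 (ESC422) and TSR-2 (ESC420), chaperones of ribosome assembly. Hermaphrodites were kept from the late L4 stage for 18 h on 1 mM auxin (indole-3-acetic acid) or on ethanol, and each library came from 20 dissected gonads of young adults. The protocols name total RNA and a SMARTer stranded kit, and name no poly(A) selection.

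The groups were RPOA-2 with ethanol (n = 4) and auxin (n = 4), GRWD-1 with ethanol (n = 3) and auxin (n = 3), and TSR-2 with ethanol (n = 2) and auxin (n = 3), so 19 libraries in all. All groups carry a degron; a strain without a degron on auxin was not analysed here, so an effect of auxin itself and an effect of losing the tagged protein cannot be told apart. The promoter and tissue of the auxin receptor are not given in the sources used here. The degron acts on protein, so mRNA of the tagged gene is no check of the labels. No label states that replicates were separate cultures, so p-values measure the spread between these libraries, which may be partly technical. A gonad is a mixture of cells, and in bulk RNA fewer cells of a type and less of an RNA per cell cannot be told apart.

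Counts came in 2 tables. The protein-coding table held whole counts for 14 libraries, those of RPOA-2 and GRWD-1, with totals from 1582308 to 8526501. The fractional table, in which reads that map to several places are split between them, held 17 libraries: all of GRWD-1 and TSR-2 and replicates 1 to 3 of RPOA-2. Its totals over protein-coding genes ran from 1903532 to 8826939, apart from TSR-2 auxin replicate 3 with 43631, where 3 counts correspond to 59.4 CPM (counts scaled to a common library size). Germline markers such as glh-1 and oma-1 summed to 7330 to 13008 CPM in the libraries of the fractional table, and sperm markers to 0 to 20.5 CPM. Intestine markers (elt-2, ges-1, vit-2, vit-6 and asp-1) covered the widest range in CPM: in the protein-coding table they summed to 29092 CPM in RPOA-2 ethanol replicate 2, 16611 in ethanol replicate 4 and 17440 in auxin replicate 4, and to 397 to 4581 CPM in the other 11 libraries. RPOA-2 ethanol replicate 2 was also the highest in hypodermis markers, with 270.4 CPM against 3.48 to 76.2 in the others, and in body wall muscle markers, with 1054 CPM against 81.1 to 372.

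Core histone genes sat in 18 groups of neighbours no more than 10000 bp apart, of which 14 held 2 or more genes. Chromosome V held 27 of the 71 genes, chromosome IV 22 and chromosome II 14, and the rest were on chromosomes III, X and I. Of the pairs of neighbours, 31 were transcribed away from each other, 16 of them an H2A with an H2B gene and 14 an H3 with an H4 gene. In such pairs the annotated genes began a median of 258 bp apart (227 to 368 bp); the annotation of most copies holds no untranslated region, so these are mostly distances between start codons. Only 7 of the genes had an intron.

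Copies differed widely in how far they could be counted, and their likeness to other copies was not measured. Over the 12 libraries in both tables, the protein-coding table held 29.6% of the counts that the fractional table gave to the 71 genes (22.0% to 33.7% by library), against 96.0% for all other protein-coding genes. The kept share was under 1% for 24 core histone genes and 90% or more for 17. Among genes with at least 100 fractional counts per library on average, 28 of 42 core histone genes kept under 50%, against 152 of 4871 other genes (3.12%). By class the kept share was 15.1% for H2A, 22.7% for H2B, 22.4% for H3 and 50.3% for H4, and 95.2% for the his-69 to his-74 group.

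**Figure D1:**
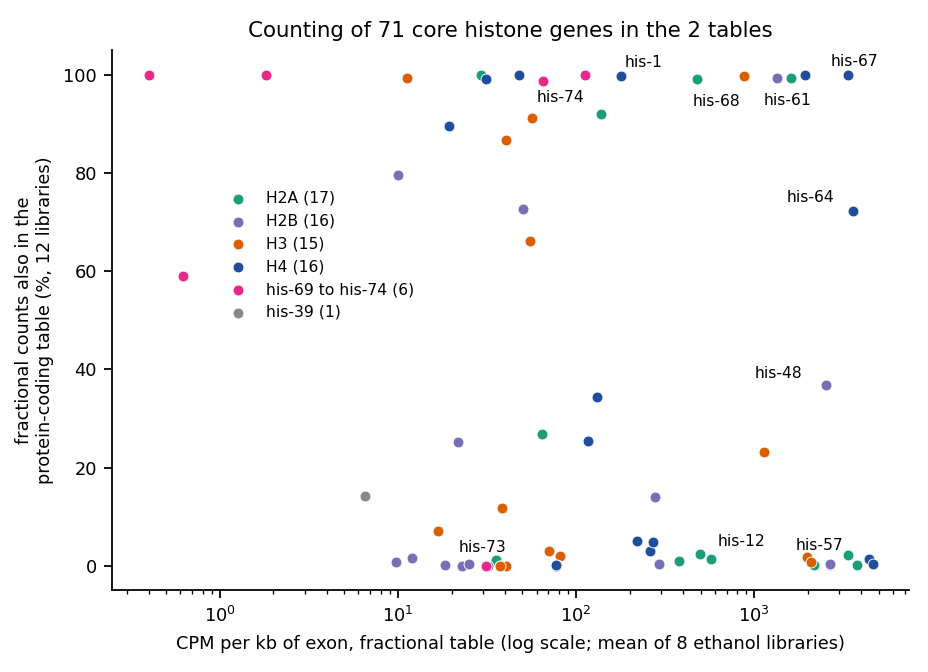
Share of each gene's fractional counts that was also in the protein-coding table (percent, 12 libraries) against its level in the fractional table (CPM per kb of exon, log scale, mean of 8 ethanol libraries); each point is 1 of 71 core histone genes, coloured by class. Highly expressed genes fall at both ends: his-67 kept 99.99% and his-57 kept 0.102%.

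A few highly expressed copies were counted almost whole in both tables and could be followed one by one. The divergent pair on chromosome I, the H4 gene his-67 (WBGene00001941, WBcel235 I:9988452-9988763, minus strand) and the H2A gene his-68 (WBGene00001942, I:9989132-9989515, plus strand), kept 99.99% and 99.0%. A quartet on chromosome IV (IV:7485834-7488659), with his-61 (H2A), his-62 (H2B), his-60 (H4) and his-59 (H3), kept 99.6% together. By contrast, 3 other quartets on chromosome IV, his-45 to his-48 (IV:11324056-11326998), his-55 to his-58 (IV:11337853-11341703) and his-63 to his-66 (IV:11400415-11407427), kept 9.64%, 0.324% and 21.0%. The cluster from his-50 to his-53 on chromosome V kept 0%, so it was invisible in the protein-coding table, and his-73 had 0 counts there against 269 fractional counts.

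Most histone RNA of the gonad was assigned to few loci. In the 8 ethanol libraries of the fractional table the his-55 to his-58 quartet held 25.7% ± 0.525 (SD) of all core histone CPM, his-45 to his-48 23.9% ± 3.41, his-63 to his-66 21.9% ± 0.418 and his-59 to his-62 11.4% ± 0.713. The 16 genes of these 4 quartets thus made up 82.9% on average. The chromosome I pair added 6.77% ± 1.33 and the 13-gene cluster on chromosome II (II:13817760-13828697) 6.53% ± 2.19. The 23 genes of the 4 largest chromosome V clusters, his-1 to his-4 included, each cluster under 1%, stayed far behind.

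Per kb of exon, the highest levels in ethanol libraries were those of the H4 genes his-56 with 4623 CPM per kb and his-46 with 4440. They were followed by the H2A gene his-65 with 3796 and the H4 genes his-64 with 3579 and his-67 with 3381. The H2A gene his-47 reached 3357 CPM per kb and the H2B genes his-66 2677, his-58 2670 and his-48 2531, and the highest H3 genes were his-55 with 2087, his-45 with 1992 and his-63 with 1130. Levels of copies that kept few counts depend on how reads were split. The order of such copies in the quartets his-45 to his-48, his-55 to his-58 and his-63 to his-66 is therefore uncertain. The kept share in these quartets ran from 0.102% for his-57 to 72.2% for his-64. Exon length enters too: his-57 and his-65 stood at 1461 and 1458 CPM, with 678 and 384 bp of annotated exon.

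In the H3.3 group, his-74 (V:12659704-12660330) stood at 113 CPM per kb (81.4 to 142 over 8 ethanol libraries) and his-72 (III:12367475-12369050) at 65.1 (45.3 to 93.1). Their ranges overlapped. The remaining members were his-73 at 31.0 CPM per kb, his-71 at 1.82, his-70 at 0.398 and his-69 at 0.618. The level of his-73 is uncertain, since none of its counts were in the protein-coding table. Its span also overlaps another gene on the same strand. The genes his-71, his-70, his-69 and his-39 passed the low-count filter in no comparison.

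In the RPOA-2 strain both genes of the chromosome I pair rose with auxin. In the protein-coding table, 39 of the 71 genes passed the filter, and 2 of them were called at an adjusted p under 0.05, both higher with auxin: his-67 and his-68. Over all genes tested 3.78% were called in either direction and 2.56% higher (298 and 202 of 7881), so the share of core histone genes, 5.13%, was near the background. The median log2 change of the 39 genes was 0.09, that of all genes -0.01.

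The H4 gene his-67 stood at 1207, 1236, 1348 and 1388 CPM in RPOA-2 ethanol replicates 1 to 4 (1294 ± 87.0, SD, n = 4). It stood at 2112, 2421, 2611 and 1927 CPM in auxin replicates 1 to 4 (2268 ± 306, n = 4). All 4 auxin libraries lay above all 4 ethanol libraries, and the log2 change was 0.80 (SE 0.13, adjusted p = 0.0176, edgeR quasi-likelihood test).

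Its divergent neighbour his-68, an H2A gene, showed 187, 167, 217 and 179 CPM with ethanol (188 ± 21.4, n = 4) and 316, 321, 367 and 237 CPM with auxin (310 ± 53.6, n = 4). Here too the groups did not overlap, with auxin replicate 4 the lowest of its group, and the log2 change was 0.72 (SE 0.13, adjusted p = 0.0197, same test). Both genes were higher with auxin in 4 of 4 pairs of replicate numbers. Blocking on that number kept both calls (adjusted p = 0.0228 and 0.0163), where 3.40% of all genes were called and 2.23% higher.

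Without the 3 libraries highest in intestine markers, RPOA-2 ethanol replicates 2 and 4 and auxin replicate 4, a choice made after the data were seen, the log2 changes were 0.88 for his-67 (adjusted p = 0.0195) and 0.70 for his-68 (adjusted p = 0.0290). Neither gene was called in 5 of the 8 sets that left out 1 library, though the direction was kept. Leaving out 1 library at a time gave log2 changes of 0.73 to 0.84 for his-67 and 0.65 to 0.79 for his-68, with adjusted p from 0.0159 to 0.0825 and from 0.0111 to 0.0790. Neither gene was called without auxin replicate 2, auxin replicate 3 or ethanol replicates 1, 3 or 4, and 1 of them without auxin replicate 1.

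In the fractional table, with 3 libraries a group, 67 core histone genes were tested and 0 were called, with 9 at an unadjusted p under 0.05; over all genes 0.337% were called (33 of 9779). There his-67 had a log2 change of 0.89 (SE 0.19, adjusted p = 0.0875) and his-68 of 0.78 (SE 0.14, adjusted p = 0.0556). DESeq2 on the same counts called both, with adjusted p of 2.87e-06 and 0.00302. Blocking on replicate number, the fractional table called his-68 alone (adjusted p = 0.0370), where 0.685% of all genes were called and 0.470% higher.

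The other H4 gene that was counted almost whole and highly expressed, his-60, did not pass the test. It stood at 711, 571, 651 and 606.1 CPM with ethanol and at 626, 806, 767 and 607.4 with auxin, with overlapping groups and a log2 change of 0.14 (SE 0.12, adjusted p = 0.599). The ratio of his-67 to his-60 within a library was 1.70, 2.16, 2.07 and 2.29 with ethanol and 3.37, 3.01, 3.40 and 3.17 with auxin, without overlap. The ratio shows unequal change of the 2 genes, not that one of them stayed the same. In the GRWD-1 strain it was 1.78, 1.79 and 1.74 with ethanol and 2.50, 1.76 and 3.21 with auxin, with overlap. With fractional counts the ratio of his-68 to his-61 was higher with auxin without overlap in all 3 strains. It was 0.246 to 0.322 with ethanol against 0.476 to 0.573 in RPOA-2, and 0.271 to 0.361 against 0.449 to 0.637 in GRWD-1. TSR-2 gave 0.224 and 0.346 against 0.379 to 0.435, with 1 auxin library shallow. No ratio was tested. In the RPOA-2 strain, H4 genes summed over the class gave 2949, 2710, 3009 and 2755 CPM with ethanol. With auxin they gave 3624, 4221, 4381 and 3357, without overlap, a sum in which his-67 is the largest part. In the fractional table, which holds more of the H4 counts, the sums overlapped, at 6389, 4620 and 6161 CPM with ethanol and 6063, 6458 and 7119 with auxin. The sums of H2A, H2B and H3 overlapped in the protein-coding table, and no sum was tested.

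Other members of the countable quartet gave values with overlapping groups. Log2 changes were -0.07 for his-61, 0.19 for his-62 and 0.29 for his-59, with adjusted p from 0.446 to 0.828. The his-59 gene, an H3 gene, was nevertheless higher with auxin in 4 of 4 pairs of replicate numbers.

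Among weakly expressed members, the H2A gene his-35 had the largest positive log2 change with auxin, 0.93 (SE 0.31, adjusted p = 0.132). It stood at 15.5, 11.32, 10.5 and 5.87 CPM with ethanol and at 19.7, 27.8, 18.6 and 18.0 with auxin, without overlap. The largest negative value was that of the H2B gene his-41, -0.85 (SE 0.51, adjusted p = 0.404), whose levels were 3.13 to 11.1 CPM with ethanol and 3.02 to 5.99 with auxin. Its span overlaps another gene on the same strand. In the fractional table, 10 of the 13 genes of the chromosome II cluster had negative log2 changes (median -0.52) and the 3 H2A genes his-12, his-16 and his-43 positive ones. When replicate 2 of both groups was left out, 6 genes of this cluster that share reads (his-10, his-11, his-14, his-15, his-26 and his-44) were called lower there, beside his-67 and his-68, which were called higher (8 of the core histone genes, and 394 of 8406 genes in all).

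In the RPOA-2 strain 1 gene of the H3.3 group, his-74, came near the threshold, and its call depended on the low-count filter. The gene his-74 showed 72.1, 57.6, 71.9 and 68.5 CPM with ethanol and 48.6, 51.2, 46.6 and 57.5 with auxin. It was lower with auxin in 4 of 4 pairs, and the highest auxin library lay just under the lowest ethanol library. The log2 change of -0.41 (SE 0.12) did not pass the test (adjusted p = 0.0957). Among genes with a mean of at least 50 counts it was called lower (-0.46, adjusted p = 0.0443). The gene his-72 stood at 39.2 to 60.7 CPM with ethanol and 33.9 to 57.5 with auxin (adjusted p = 0.999).

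**Figure D2:**
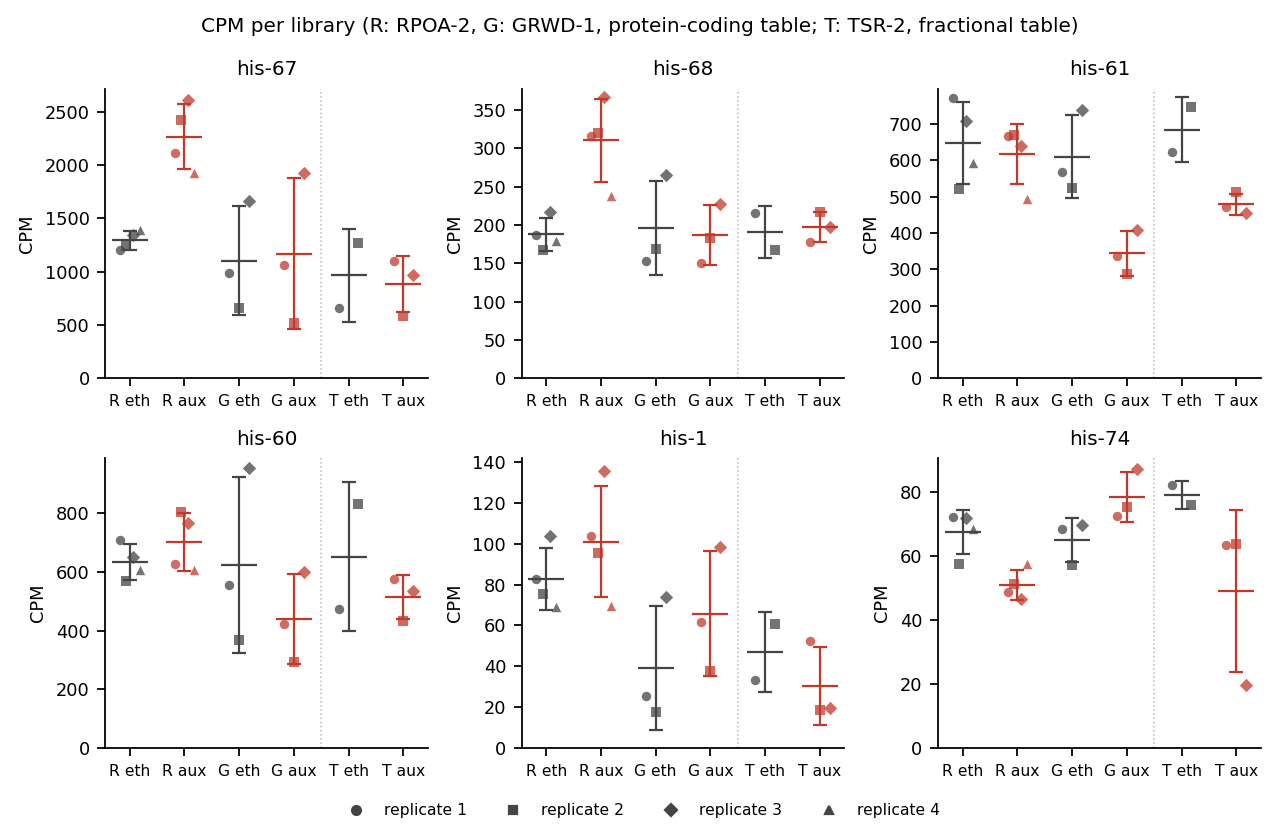
CPM of 6 core histone genes in each library (points; shape gives the replicate number) with mean and SD (bars) for ethanol (eth, dark grey) and auxin (aux, red) groups of the strains RPOA-2 (R) and GRWD-1 (G) (protein-coding table, left of the dotted line) and TSR-2 (T) (fractional table, right). In the RPOA-2 strain his-67 and his-68 lie higher in all 4 auxin libraries; in the GRWD-1 strain his-61 lies lower in all 3.

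In the GRWD-1 strain the chromosome I pair passed no test, and a gene of the countable quartet fell. Of 35 core histone genes tested in the protein-coding table, 1 was called, the H2A gene his-61, lower with auxin. Over all genes 2.69% were called, 1.48% lower (187 and 103 of 6948); 5 core histone genes had an unadjusted p under 0.05. The median log2 change of the 35 genes was -0.15, that of all genes -0.0017.

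The H2A gene his-61 (IV:7485834-7486217, minus strand) stood at 568, 523 and 739 CPM in GRWD-1 ethanol replicates 1 to 3 (610 ± 114, n = 3) and at 336, 287 and 409 CPM in auxin replicates 1 to 3 (344 ± 61.4, n = 3). The groups did not overlap, and the gene was lower with auxin in 3 of 3 pairs. The log2 change was -0.85 (SE 0.18, adjusted p = 0.0311, edgeR quasi-likelihood test). In the fractional table it was -0.84 (SE 0.19, adjusted p = 0.0640), where 0 of 67 genes tested were called, 4 had an unadjusted p under 0.05, and 1.13% of all genes were called (84 of 7438). No core histone gene was called when any 1 library was left out; his-61 then had log2 changes of -0.94 to -0.70, with adjusted p from 0.0632 to 0.157.

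Libraries of the GRWD-1 strain that shared a replicate number deviated together, and blocking on that number raised the calls. Then 8 of 35 core histone genes in the protein-coding table (22.9%) were called, against 14.0% of all genes (975 of 6948). Of these, 7 were lower with auxin, 20.0% of those tested against 6.85% of all genes, and all 7 lie in the chromosome IV quartets. They were his-61 (log2 change -0.85, adjusted p = 0.000139), his-60 (-0.49, 0.00748), his-64 (-0.50, 0.0176), his-59 (-0.48, 0.0184), his-63 (-0.48, 0.0212), his-62 (-0.43, 0.0310) and his-48 (-0.33, 0.0495). All 4 classes are among them.

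Replicates of the GRWD-1 strain lay far apart for some of these genes. The H4 gene his-64 stood at 737, 383 and 2178 CPM in ethanol replicates 1 to 3 and at 663, 292 and 1202 in auxin replicates 1 to 3, so the replicates of a group differed more than the treatments, and each auxin library lay below the ethanol library of its number. The H4 gene his-60 behaved alike, with 556, 367 and 955 CPM with ethanol and 423, 295 and 599.6 with auxin. For the H3 gene his-59 the values were 284, 312 and 499 CPM with ethanol and 232, 263 and 284 with auxin, and for the H2B gene his-62 they were 396, 538 and 644 with ethanol and 323, 488 and 380 with auxin. In all 4 genes the auxin library was lower in 3 of 3 pairs.

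The gene called higher with the block (2.86% of those tested, against 7.18% of all genes) was the H4 gene his-1 in the his-1 to his-4 cluster on chromosome V (V:16040144-16042831). It stood at 25.5, 17.8 and 73.99 CPM with ethanol and at 61.4, 37.6 and 98.3 with auxin, higher in 3 of 3 pairs with overlapping groups (log2 change 0.86, adjusted p = 0.0155 with the block; 0.73, 0.443 without). Its neighbour his-4, an H2B gene, stood at 2.88, 6.96 and 8.42 CPM with ethanol and at 11.6, 12.7 and 20.2 with auxin, without overlap, and had the largest positive log2 change in that table, 1.25 (SE 0.51, adjusted p = 0.221).

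With the fractional counts the block called 12 of 67 core histone genes, against 12.7% of all genes (944 of 7438). Of these, 10 were lower, all in the 4 quartets (his-45, his-46, his-55, his-56, his-59, his-60, his-61, his-62, his-63 and his-64), against 6.24% of all genes. The other 2, his-1 and his-4, were higher, against 6.45% of all genes. Near-identical copies share split reads, so the values of his-45 and his-55, or of his-46 and his-56, are not independent.

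Sorted by position, the fractional table gave opposite signs for 2 sets of loci in the GRWD-1 strain. All 16 genes of the chromosome IV quartets had a negative log2 change with auxin (median -0.45, from -0.84 to -0.20), and 13 of them were lower in every pair. All 22 tested genes of the 4 largest chromosome V clusters had a positive one (median 0.57, from 0.23 to 1.16), and 17 of them were higher in every pair. In the protein-coding table, 13 of 13 quartet genes were negative, 8 of them lower in every pair, and 8 of 8 chromosome V genes were positive, 2 of them higher in every pair. These sets of loci were formed after the values were seen, and near-identical copies within them are not independent, so the counts are a description without a test.

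Both counts leaned on replicate 3. Without ethanol replicate 3, the library richest in H4, 13 of 16 quartet genes stayed negative in the fractional table and 8 of 14 in the protein-coding table. Without auxin replicate 3, 12 of 22 chromosome V genes stayed positive in the fractional table and 3 of 8 in the protein-coding table.

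**Figure D3:**
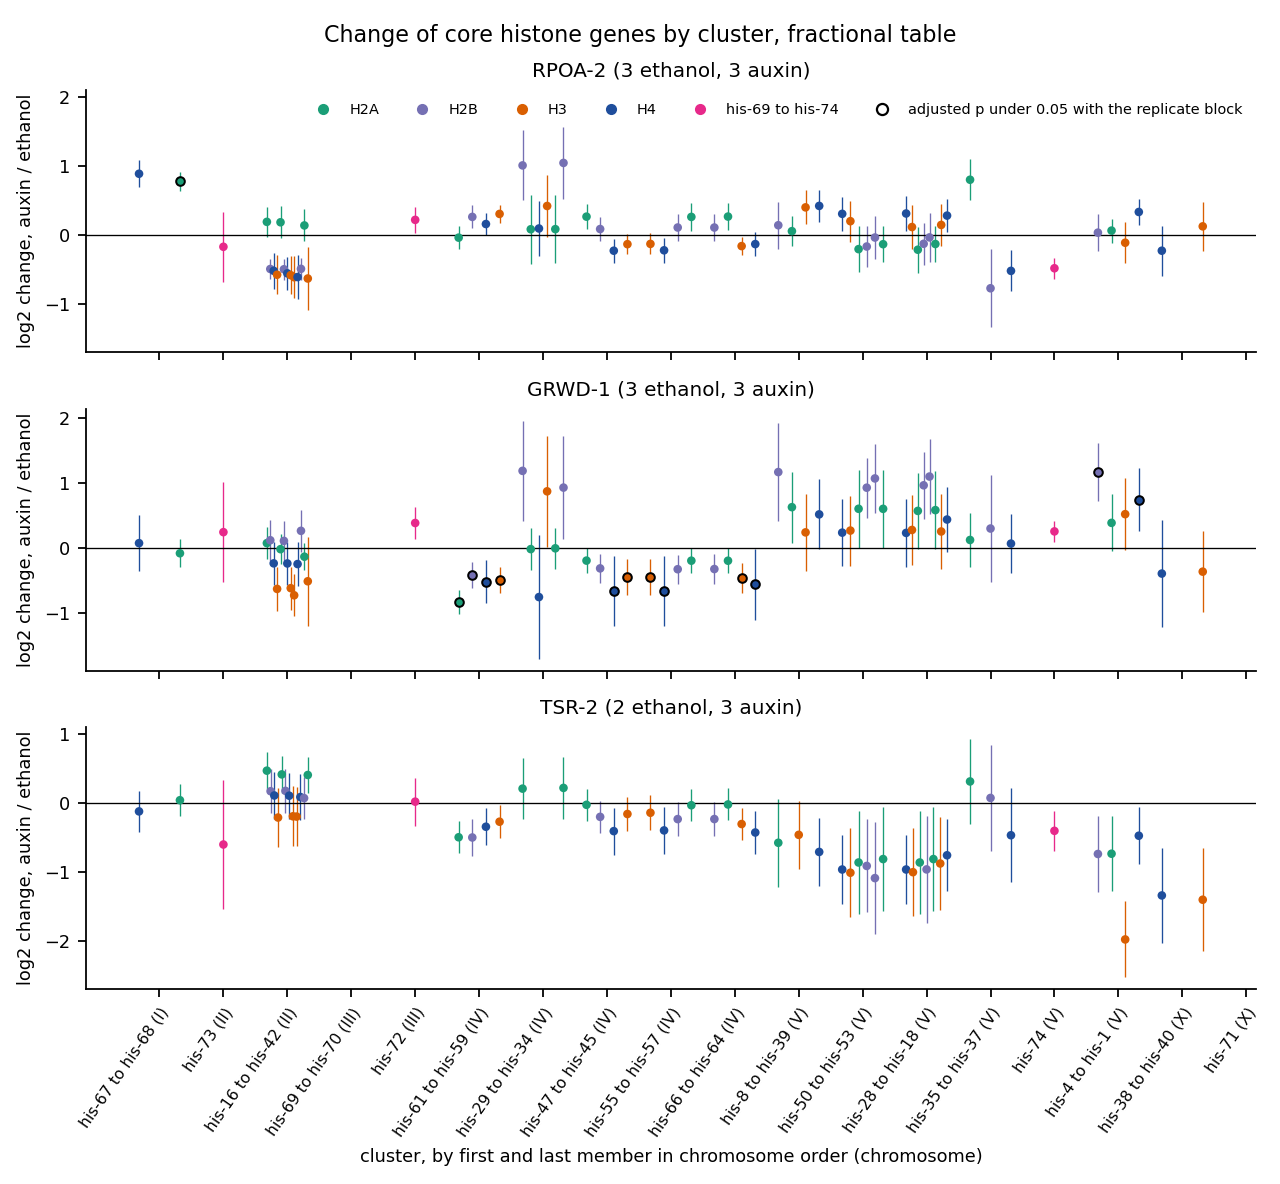
Log2 change with auxin against ethanol (vertical axis, with SE) of each tested core histone gene in the fractional table, grouped by cluster in chromosome order and coloured by class, for each strain in a panel of its own; ringed points have an adjusted p under 0.05 with the replicate block (not drawn for TSR-2). In the GRWD-1 strain all 16 genes of the chromosome IV quartets lie below 0 and all 22 tested genes of the 4 largest chromosome V clusters above it; in the TSR-2 strain the 20 tested genes of those chromosome V clusters lie below 0.

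In the H3.3 group of the GRWD-1 strain, his-74 stood at 68.3, 57.2 and 69.6 CPM with ethanol and at 72.4, 75.3 and 87.1 with auxin, without overlap, with a log2 change of 0.24 (SE 0.17, adjusted p = 0.521). The gene his-72 stood at 33.2, 35.6 and 56.3 CPM with ethanol and at 44.8, 69.5 and 49.0 with auxin (log2 change 0.36, adjusted p = 0.485). The chromosome I pair showed no call: his-67 had a log2 change of 0.06 (SE 0.40) and his-68 of -0.09 (SE 0.20). The spread of his-67 was wide here, from 657 to 1661 CPM with ethanol and from 519 to 1925 with auxin.

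The TSR-2 strain could be read in the fractional table alone, with 2 ethanol and 3 auxin libraries, 1 of them very shallow. Of 60 core histone genes tested 0 were called by edgeR, with 2 at an unadjusted p under 0.05, and 0 of 29 by DESeq2, with 1; over all genes 2.55% were called by edgeR (163 of 6396). The median log2 change of the 60 genes was -0.37, that of all genes -0.03.

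The lowest p belonged to his-2, an H3 gene of the his-1 to his-4 cluster. It stood at 23.5 and 29.1 CPM with ethanol and at 6.86, 7.30 and 0 with auxin, without overlap, with a log2 change of -1.98 (SE 0.55, adjusted p = 0.0515). The 0 is in the shallow library, where it allows up to 59.4 CPM. The gene passed with relative log expression (RLE) size factors (adjusted p = 0.0421) and without a low-count filter (0.0290).

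The other gene with an unadjusted p under 0.05 was his-61, at 622 and 747 CPM with ethanol and at 470.0, 512 and 455 with auxin, also without overlap (log2 change -0.49, SE 0.24, adjusted p = 0.294). The largest negative value after his-2 was -1.40 for the H3 gene his-40 on chromosome X (SE 0.75, adjusted p = 0.353), with 13.1 and 19.9 CPM with ethanol and 12.4, 1.503 and 0 with auxin. The largest positive values were 0.47 for his-16 and 0.42 for his-12, H2A genes of the chromosome II cluster that share reads. In the shallow library his-74 stood at 19.8 CPM, which is below 3 counts, and its log2 change in this strain was -0.40 (adjusted p = 0.530).

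By position, all 20 tested genes of the 4 largest chromosome V clusters had a negative log2 change in the TSR-2 strain (median -0.86), as had all 16 genes of the chromosome IV quartets (median -0.25). In the chromosome II cluster 9 of 12 tested genes were positive. Without the shallow library, 22 of 22 chromosome V genes and 13 of 16 quartet genes were negative. The counts leaned on single libraries: without ethanol replicate 2, 15 of 22 chromosome V genes were negative, and without ethanol replicate 1, 10 of 16 quartet genes were negative and 13 of 13 chromosome II genes positive. Without either ethanol replicate only the other ethanol library was left in its group, so no calls are read from those fits. Those fits enter the numbers of calls only as part of the range for leaving out 1 library.

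Differences between strains were tested as interactions, and 0 core histone genes passed in any of the 3 tests. Between RPOA-2 and GRWD-1, in the protein-coding table, 42 were tested and 0.0105% of all genes were called. An unadjusted p under 0.05 was found for 6 core histone genes. The differences of log2 changes with the lowest p were -0.67 for his-74 (SE 0.21), 0.76 for his-61 (SE 0.25) and 0.79 for his-68 (SE 0.28), and that of his-67 was 0.73 (SE 0.46). Each had an adjusted p of 1.00 in edgeR's quasi-likelihood test. DESeq2 also called 0 of 13 tested by it, with 5 at an unadjusted p under 0.05. So the call of his-67 and his-68 in the RPOA-2 strain and that of his-61 in the GRWD-1 strain are not shown to differ between the strains.

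In the fractional table the contrast of RPOA-2 with TSR-2 (67 tested, 2 with an unadjusted p under 0.05) and that of GRWD-1 with TSR-2 (67 tested, 8) each called 0% of all genes. In these fits the median contrast over all genes was 0.28 and 0.27 on the log2 scale, so values should be read against that shift. For his-2 the contrast of GRWD-1 with TSR-2 was 2.48 (SE 0.76, adjusted p = 0.879), and for his-4 it was 1.90 (SE 0.61, adjusted p = 0.879).

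A run of libraries stood apart by its H4 RNA. Summed over each class in the fractional table, H4 genes reached 2419 to 3439 CPM in the 4 libraries named HSL-610 to HSL-613 and 4435 to 11938 CPM in the other 13. The first 4 are GRWD-1 replicate 2 of both treatments, TSR-2 ethanol replicate 1 and TSR-2 auxin replicate 2, so 2 strains and both treatments. The ratio of H4 to H3, as sums of CPM per kb, was 1.21 to 1.53 there and 2.28 to 4.90 elsewhere.

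Not all single H4 genes were split in this way. The H4 gene his-67, which needs no splitting of reads, stood at 497 to 657 CPM in libraries HSL-610 to HSL-613 and at 855 to 2546 CPM elsewhere, and his-46 at 489 to 787 against 847 to 3241. The ranges overlapped for the H4 genes his-60, at 283 to 473 CPM against 388 to 896, and his-1, at 17.3 to 36.1 against 19.8 to 133. The sums of the other classes overlapped as well. H3 sums were 2466 to 3494 CPM against 1456 to 3337, H2A sums 5317 to 7118 against 3907 to 7086, and H2B sums 3894 to 4739 against 2272 to 4471. The runs of library numbers were looked at after the values were seen; what the numbers stand for is not given in the labels, and its part in the results above was not tested.

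**Figure D4:**
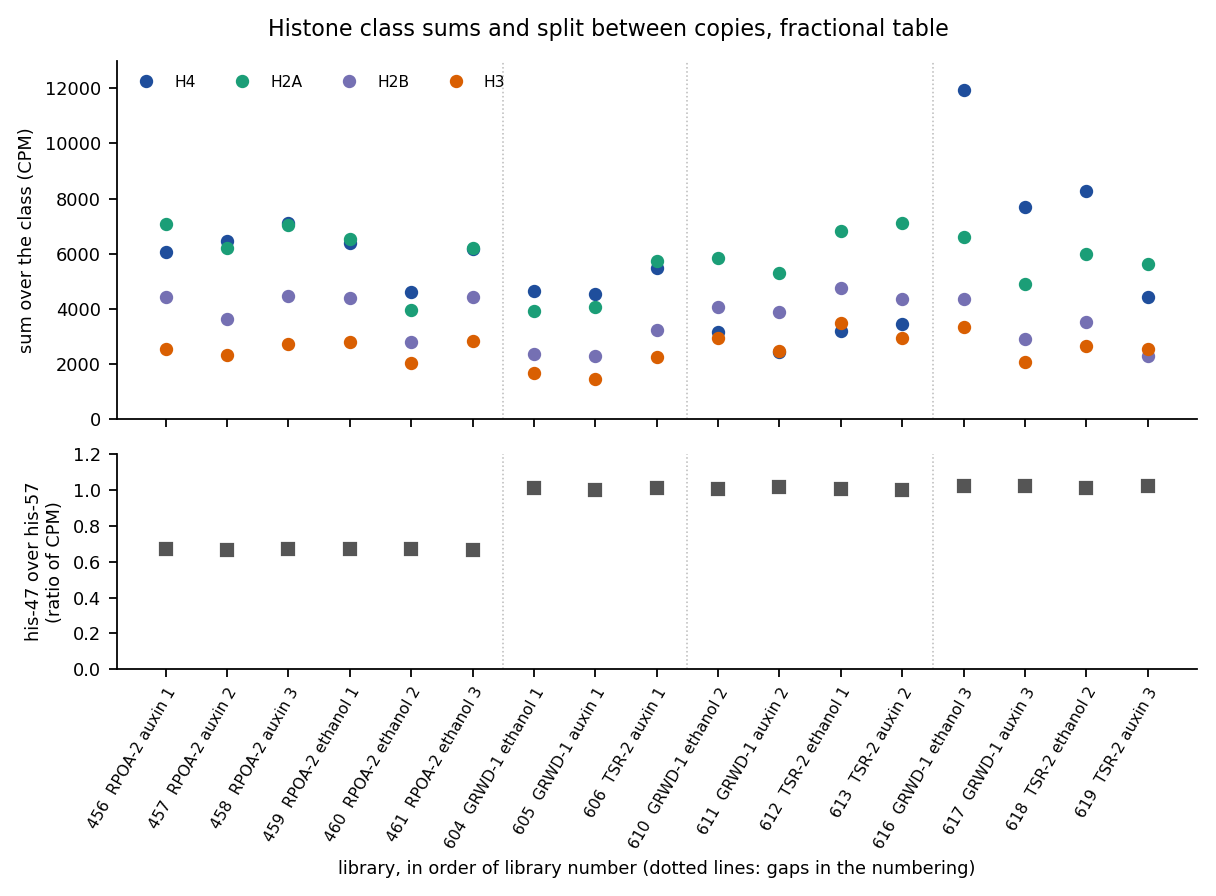
Upper panel: summed CPM of the H4, H2A, H2B and H3 genes in each library of the fractional table, in order of library number; lower panel: ratio of the CPM of his-47 to that of his-57, near-identical H2A copies. H4 falls to 2419 to 3439 CPM in libraries HSL-610 to HSL-613, and the ratio is 0.666 to 0.673 in libraries HSL-456 to HSL-461 and 0.999 to 1.02 in the others.

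The split of reads between copies differed by series as well. The H2A copies his-47 and his-57 stood in a ratio of 0.666 to 0.673 in libraries HSL-456 to HSL-461, all of the RPOA-2 strain, and of 0.999 to 1.02 in libraries HSL-604 to HSL-619. The H3 copies his-45 and his-55 gave 0.822 to 0.841 against 0.990 to 1.03, and the H4 copies his-46 and his-56 0.841 to 0.868 against 1.00 to 1.02. In the protein-coding table the H3 gene his-63 stood at 57.3 to 71.04 CPM in libraries HSL-456 to HSL-461, at 144 to 179 in RPOA-2 replicate 4 (libraries HSL-607 and HSL-608) and at 111 to 235.3 in the GRWD-1 strain. The RPOA-2 comparison in the protein-coding table spans both series, with 1 ethanol and 1 auxin library from the later one, and the levels and cluster shares of ethanol libraries are means over both. The calls of his-67, his-68 and his-61 rest on genes that kept 99.0% or more of their counts.

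Summed over all 71 genes the strains gave overlapping groups in the protein-coding table: 5368 ± 421 CPM with ethanol and 6659 ± 819 with auxin in the RPOA-2 strain (n = 4 each), and 5544 ± 2398 and 4491 ± 1528 in the GRWD-1 strain (n = 3 each). In the fractional table the TSR-2 sums were 18404 and 20560 CPM with ethanol and 16823, 18006 and 15025 with auxin. These sums were not tested.

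Genes around histone supply gave no call at an adjusted p under 0.05 without a block: 0 of 32 DNA replication genes, 0 of 17 histone chaperone and assembly genes and 0 of 3 variant histone genes (htz-1, hcp-3 and cpar-1) in each strain. The median log2 change of the DNA replication genes was 3.99e-05 in the RPOA-2 strain (4 at an unadjusted p under 0.05), 0.02 in the GRWD-1 strain (3) and -0.24 in the TSR-2 strain (2). With the replicate block, the GRWD-1 strain called 2 chaperone genes higher and 2 lower, and 1 DNA replication gene in each direction, against 14.0% of all genes.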

How the data were processed

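RNA-seq of dissected gonads was analysed from 2 deposited tables of 19 libraries. The protein-coding table holds counts deposited by the authors (14 libraries, 19985 genes); the fractional table holds estimated counts deposited by the authors, with multi-mapped reads split (17 libraries, 46930 features), and its 19985 protein-coding genes were used, with expected counts rounded to whole numbers. The submitters' processing notes name Trim Galore 0.6.10, HISAT2 2.2.1, Picard, featureCounts 2.0.6 and the build WBcel235; their roles, the strand setting and the treatment of duplicates are not given in the sources used here. Gene symbols, coordinates and coding lengths came from the WBcel235 annotation. Classes were set by coding length in place of protein identity, since protein sequences were not used here, anchored on his-1 (H4), his-2 (H3), his-3 (H2A) and his-4 (H2B), and no sequence was read.

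Each strain's auxin libraries were compared with its ethanol libraries by edgeR 4.0.16's quasi-likelihood test (filterByExpr, TMM, Benjamini-Hochberg over all genes tested, threshold 0.05), with R 4.3.3; differences between strains were contrasts in a fit of several strains. A log2 change is edgeR's; CPM uses TMM sizes over all libraries of a table. DESeq2 1.42.0, RLE sizes, total counts, other filters, a replicate block and left-out libraries were alternatives; leaving out replicate 2, or the 3 libraries richest in intestine markers, was added after seeing the data. The fits were checked on simulated counts. No 2 libraries were identical. Counts carry no molecular identifiers, so floors of 3 counts cover counting error only.

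Members and gene lists were chosen with earlier results of these data known. Named were genes called in any fit, the 3 highest per class, his-69 to his-74, and the 2 largest rises and falls per strain. Outside that rule, his-1, his-43, his-59, his-60, his-62, the other genes named beside a count of calls, the sets of loci and the runs of library names were chosen after their values were seen.

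The replicate numbers came from the labels. Same-numbered ethanol and auxin libraries had correlated deviations in the RPOA-2 strain (0.17 to 0.31 in the protein-coding table) and the GRWD-1 strain (0.23 to 0.46), and so were read as pairs. Libraries with different numbers gave -0.44 to 0.30 in the RPOA-2 strain and -0.45 to 0.14 in the GRWD-1 strain. The ranges overlap in the RPOA-2 strain, so its pairs are less certain. In the TSR-2 strain the same-numbered values were -0.18 and -0.072.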

Additional observations from a re-analysis of the deposited data

Results flagged for a closer look

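In the protein-coding table, single RPOA-2 libraries stood apart from the other 3 of their group in 12 of 62 groups of 4 libraries tested by Dixon's criterion. The nominal rate of about 1 in 20 is no yardstick here, since several flags rest on few counts and copies share reads. For his-69 and his-29 the flagged value is 2 counts beside 0 in the other 3 libraries. In RPOA-2 auxin replicate 4, his-45 stood at 19.96 CPM, his-63 at 144.5 and his-42 at 1.596, while his-58 was at 0, his-66 at 0.3991 and his-71 at 0. In ethanol replicate 4, his-63 stood at 179.4 CPM and his-42 at 6.524. The others were his-69 and his-29 at 0.3971 CPM each in ethanol replicate 2, his-16 at 0.5683 in ethanol replicate 3 and his-12 at 18.96 in auxin replicate 2. Replicate 4 (libraries HSL-607 and HSL-608) carries library names apart from those of replicates 1 to 3 (HSL-456 to HSL-461).

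The H3.3-related gene his-74 was lower with auxin in 4 of 4 pairs of the RPOA-2 strain and higher in 3 of 3 pairs of the GRWD-1 strain. The difference of the log2 changes was -0.6749 (unadjusted p = 0.00556, adjusted p = 1.00, edgeR quasi-likelihood test), so it did not pass over all genes.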

How the results depend on the processing

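Alternative settings moved the number of core histone genes called, and that of all genes as well. Without 1 library, 7 to 219 of all genes were called in the RPOA-2 strain and 26 to 125 in the GRWD-1 strain (protein-coding table). With fractional counts these were 1 to 91 and 1 to 47. The block called 14.0% (protein-coding) and 12.7% (fractional) of all genes in the GRWD-1 strain. The counts below are thus not read as particular to core histone genes. In the TSR-2 strain the range without 1 library includes fits with a single ethanol library, and no calls are read from those fits. In the RPOA-2 strain (protein-coding table, 2 called) 0 were called without replicate 2 of both groups, 0 to 2 without 1 library, 3 without a low-count filter (all higher) and 3 with a mean of at least 50 counts (2 higher and, lower, his-74). With fractional counts (0 called) the number was 2 with DESeq2, with total counts and with a mean of at least 50 counts, 1 with the replicate block, 8 without replicate 2 of both groups and 0 to 1 without 1 library. In the GRWD-1 strain it was 8 with the replicate block in the protein-coding table (1 without the block; 0 without any 1 library) and, with fractional counts (0 called), 12 with the block and 1 with DESeq2, without a low-count filter or with a mean of at least 50 counts. In the TSR-2 strain (0 called) it was 1 with RLE sizes or without a filter, and 0 to 6 without 1 library; its numbers did not pair, and the block called 0.

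Single genes that changed sign were uncalled in the fits without a block. With the replicate block some of them were called lower in the GRWD-1 strain. These were his-64 in both tables and his-45, his-46, his-55 and his-56 with fractional counts. In the RPOA-2 strain, his-72 had -0.0092 (DESeq2), -0.031 (RLE) and -0.054 (mean of at least 50), and -0.13 to 0.11 without 1 library. With the block, his-67 in the GRWD-1 strain had -0.036 (protein-coding table) and -0.024 (fractional). In the TSR-2 strain his-68 had -0.0098 (DESeq2), -0.020 (RLE) and -0.013 (mean of at least 50), and without 1 library -0.070 to 0.24, and his-67 -0.52 to 0.49. Without 1 library of the GRWD-1 strain, log2 changes in the protein-coding and fractional tables were -1.14 to 0.32 and -1.02 to 0.29 for his-64, -0.59 to 0.32 and -1.10 to 0.18 for his-56, -0.44 to 0.46 and -0.42 to 0.50 for his-67, and -0.21 to 0.18 and -0.22 to 0.21 for his-68; they were -0.57 to 0.079 for his-45 and -0.78 to 0.23 for his-55 (protein-coding) and -1.10 to 0.17 for his-46 (fractional). Causes were not tested. The shallow TSR-2 library limits low genes there, and split reads limit the near-identical copies.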
